A study of Mus musculus with 8 samples.

Results

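Neutrophils carry their weapons ready made, and the genes described here encode those proteins: the contents of the azurophil, specific and gelatinase granules, and the antimicrobial and inhibitory proteins of the cytosol. The list holds 40 mouse genes, and the table of array values held a row with the matching RefSeq identifier for 39 of them, among 24625 rows in all. Olfm4, which marks the specific granules of some neutrophils, had no matched row. By compartment, 6 genes were taken as azurophil, 13 as specific (12 with a row), 4 as gelatinase and 10 as cytosolic. The other 7 (Retnlg, Wfdc21, Chil3, Cst7, Mcemp1, Plbd1 and Itgb2l) were kept apart, because their compartment in mouse neutrophils was not taken as settled. Each member had 1 row.

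Granule proteins are made in the bone marrow in a fixed order while the neutrophil matures. Azurophil proteins such as myeloperoxidase and the serine proteases come first, in promyelocytes, specific-granule proteins such as lactoferrin follow in myelocytes and metamyelocytes, and gelatinase-granule proteins come last. A circulating neutrophil thus holds large amounts of protein whose messenger RNA may have long gone, and it empties the granules in the reverse order of their making when it meets bacteria in the lung. Array values report the messenger RNA still present, not the stored protein.

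The cells came from the lungs of wild type (WT) C57BL/6J mice aged 6 to 12 weeks. The methods state that females were bought to breed colonies and that the mice studied were matched for sex, without naming that sex. The cells were taken 24 h after the left lung had received, through the trachea, either Streptococcus pneumoniae serotype 19 (SP) or phosphate-buffered saline alone (PBS). The volume was 2.3 µl for each g of mouse. Ly6G, a neutrophil surface protein, was used to pull the cells out of whole-lung suspensions with magnetic beads. Purity was checked on stained cells in the pneumonia samples only, where the study reports few contaminating cells, usually like alveolar macrophages and rarely eosinophils. The study also states that Ly6G messenger RNA was high in every sample. Each of 4 PBS and 4 SP samples was read on 1 Affymetrix Mouse Gene 1.1 ST array, and this number limits the precision of every comparison. The labels do not say how many mice gave a sample, while the study's text speaks of each sample as coming from a mouse. The p-values measure the spread between these samples.

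Values are log2 intensities, given per array in the order of replicates 1 to 4, and a difference is SP minus PBS in log2 units. A gene was called when limma gave a Benjamini-Hochberg adjusted p of at most 0.05 over all 24625 rows. Levels of different genes cannot be ranked, since each is read by its own probes. Rows of the Y-linked genes Ddx3y, Kdm5d and Uty lay between 4.33 and 4.90 on all arrays and were taken to mark the level of a gene that is not expressed. As the sex is not named, this use takes the mice as female. The Y-linked rows lay close to the dimmest members, such as Ctsg (4.24 on PBS replicate 2). Array medians were lower in SP by 0.28, while the median difference over all rows was 0.10. Centring the arrays on their medians moved the latter to 0.38 and another quantile normalization moved it to 0.02, so the sign of a small difference depends on the scaling.

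Before any comparison, SP replicate 3 stood apart from the other SP samples in these genes. It was the highest SP array for 33 of 39 members (84.6%), against 41.1% of all rows, and the lowest for 2, against 33.9%. It lay more than 1 log2 unit above the mean of the other 3 SP arrays for 16 members, where 1.38% of all rows did so, and more than 1 unit below it for 0 members, where 4.64% of all rows did. PBS replicate 2 was the lowest PBS array for 29 of 39 members, against 36.3% of all rows. These patterns were noticed in the data, and where a call of a member rests on either array, its values are given with and without it.

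Over all 8 arrays, granule and cytosolic antimicrobial genes moved in both directions during pneumonia. Of 39 members, 8 were higher and 7 lower in SP, and 24 were not called. That is 38.5% called, where 44.1% of all rows were called (21.5% higher, 22.6% lower). The share called was 33.3% of azurophil, 33.3% of specific, 50% of gelatinase and 30% of cytosolic genes. At 2-fold or more, Cst7 and Gca were higher and Padi4 was lower (6.37% and 11.3% of all rows). The 2 groups did not overlap for 13 members, 11 with SP above and 2 with SP below, against 27.2% and 21.8% of all rows (49% in either direction). The median difference of the members was -0.077, which was 0.18 below the median of all rows. With centred arrays it turned positive (0.20) and stayed 0.18 below that of all rows.

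Without SP replicate 3, 8 members were higher and 16 lower, against 21.5% and 22.3% of all rows (43.8% in either direction), and the median difference was -0.28. The same 8 were higher and the same 7 were lower as over all arrays. The 9 members called lower only in this fit were Ltf, Ngp, Cd177, Hp, Mmp25, S100a8, S100a9, Serpinb1a and Itgb2l. At 2-fold or more, 8 were lower in place of 1, where 10% of all rows were, and Cst7 alone was higher, where 6.55% were. With PBS replicate 2 left out as well, 7 were higher and 18 lower, against 19.3% and 22.4% of all rows (41.7% in either direction). Of these, 1 was at least 2-fold higher and 11 were at least 2-fold lower, against 6.2% and 9.52%. Both arrays were singled out by the values of these same members. Leaving out a high SP array or a low PBS array lowers SP minus PBS, so the larger numbers of falls follow in part from that choice. The shares of all rows, on which the arrays were not chosen, are no like reference here. Adjusted p-values without these arrays do not allow for the choice.

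**Figure D1:**
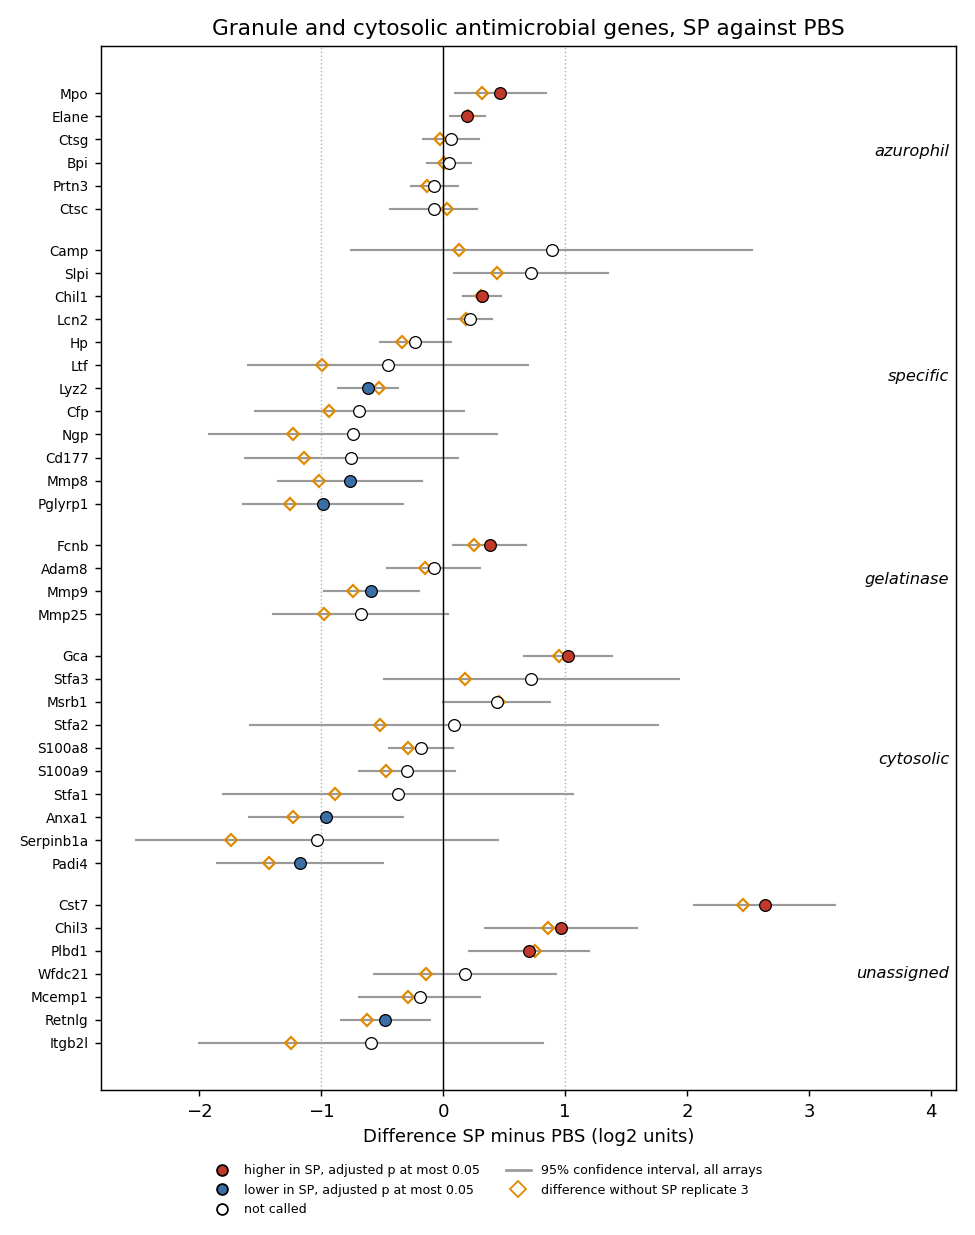
Difference SP minus PBS in log2 units for each of the 39 members with a row, grouped by compartment; points are the limma estimates over 4 PBS and 4 SP arrays, lines their 95% confidence intervals, filled points pass an adjusted p of 0.05, and open diamonds give the difference without SP replicate 3. The diamonds lie left of the points for most specific-granule and cytosolic genes, as for Serpinb1a (-1.03 over all arrays, -1.74 without it), and stay close to them for Cst7, Gca, Chil1 and Lyz2.

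Azurophil genes were near or at the level of Y-linked genes in both groups, with the exception of Ctsc. Mpo (myeloperoxidase, which makes hypochlorous acid), Elane, Prtn3 and Ctsg (serine proteases) and Bpi (which binds bacterial lipopolysaccharide) did not exceed 4.90 on any PBS array. In SP, Mpo exceeded it on 2 arrays, and the other 4 on 0. Mpo read 4.37, 4.31, 4.59 and 4.55 in PBS and 4.94, 4.70, 5.38 and 4.67 in SP. Every SP value lay above every PBS value, and SP replicate 3 was the highest. The difference of Mpo was 0.47 (SE 0.16, 1.39-fold, adjusted p = 0.0456 by limma). It was lost without any single PBS array (0.0588 to 0.107) or SP replicate 1 (0.0929). Without PBS replicate 2 and SP replicate 3 together it was 0.27 (adjusted p = 0.082), and over all alternatives the adjusted p ranged from 0.00724 to 0.107.

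Elane was called at a difference of 0.20 (adjusted p = 0.0295 by limma), from 4.58 ± 0.02 to 4.78 ± 0.04 (SD, n = 4 each), inside the range of the Y-linked rows. That call was lost without any single PBS array (0.0507 to 0.0795), without SP replicate 1 (0.0649) or 2 (0.0676), and after another quantile normalization (0.05, adjusted p = 0.632), the lowest being 0.00152 among all alternatives. The Y-linked rows themselves had a median difference of 0.18, and Kdm5d among them had an adjusted p of 0.0497. A change of this size in a row at the background level and a change of the background cannot be told apart. Ctsc encodes cathepsin C, the protease that activates elastase, proteinase 3 and cathepsin G by trimming their ends. It read 12.28, 12.23, 12.10 and 12.06 in PBS and 12.14, 11.96, 11.76 and 12.51 in SP. The groups overlapped on both sides, and the difference was -0.08 with a 95% confidence interval from -0.43 to 0.28 (adjusted p = 0.682 by limma).

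Specific-granule genes with a row were above the Y-linked level on all arrays, and 3 of 12 were called lower and 1 higher, which is 33.3% called and so below the 44.1% of all rows. The median of the 12 rows was -0.53, which was 0.63 below that of all rows, and it kept its sign under each alternative run. Pglyrp1, Mmp8 and Lyz2 fell and Chil1 rose. Without SP replicate 3, Ltf, Ngp, Cd177 and Hp also passed the threshold, which gave 7 lower and 1 higher and a median of -0.73. In these bulk samples, fewer cells of a type and less RNA per cell cannot be told apart.

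Pglyrp1 encodes a protein that binds bacterial peptidoglycan, the wall material of S. pneumoniae. It read 12.87, 12.51, 13.06 and 12.98 in PBS and 11.33, 11.46, 12.68 and 12.01 in SP. Of the SP arrays, only replicate 3 reached the PBS range, where it passed PBS replicate 2. Pglyrp1 fell by 0.99 (SE 0.29, 1.98-fold lower, adjusted p = 0.0242 by limma). Without SP replicate 3 the fall was 2.39-fold (adjusted p = 0.00191), while without PBS replicate 1, 3 or 4 or SP replicate 1 or 2 the adjusted p was 0.0573 to 0.0613 (0.000219 to 0.0613 over all alternatives).

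Mmp8, the neutrophil collagenase, read 13.33, 13.18, 13.45 and 13.31 in PBS and 12.15, 12.06, 13.32 and 12.69 in SP. SP replicate 3 lay inside the PBS range and the other 3 below it. The gene fell by 0.76 (SE 0.26, 1.70-fold lower, adjusted p = 0.0426 by limma), and by 2.02-fold without SP replicate 3 (adjusted p = 0.00194). Leaving out any other array put the adjusted p between 0.0581 and 0.105 (0.000455 to 0.126 over all alternatives).

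Lyz2 encodes lysozyme, which cuts peptidoglycan and is also made by macrophages and alveolar type 2 cells. It read 13.14, 13.24, 13.17 and 13.13 in PBS and 12.73, 12.48, 12.30 and 12.73 in SP. All SP arrays were below all PBS arrays, and here SP replicate 3 was the lowest. Lyz2 fell by 0.61 (SE 0.11, 1.53-fold lower, adjusted p = 0.00233 by limma). The adjusted p stayed between 0.000592 and 0.0204 over all alternatives. Of 8 alveolar type 2 markers 7 were lower in SP, where 22.6% of all rows were. The mean of these markers was also lowest on SP replicate 3 (10.44, against 10.92 to 11.70 on the other SP arrays and 12.21 to 12.64 in PBS). The part of such cells in the fall of Lyz2 was not tested.

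Ltf encodes lactoferrin, which withholds iron from bacteria. It read 11.04, 11.35, 10.83 and 10.45 in PBS and 9.69, 9.86, 12.10 and 10.22 in SP. SP replicate 3 was the highest of all 8 arrays, while the other SP arrays were below every PBS array. The difference was -0.45 (SE 0.50, adjusted p = 0.46 by limma) and, without SP replicate 3, -0.995 (adjusted p = 0.00953, the lowest over all alternatives, which ran to 0.77).

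Ngp, a cathelicidin-related granule protein, behaved alike, at 12.69, 12.45, 12.70 and 12.53 in PBS and 11.21, 10.62, 13.34 and 12.25 in SP. Its PBS arrays lay within 0.25 of each other and its SP arrays spread over 2.72. The difference was -0.74 (adjusted p = 0.252 by limma), and -1.23 without SP replicate 3 (adjusted p = 0.0228, 0.00822 to 0.545 over all alternatives). Cd177, a surface protein stored in the specific granule, went from 11.97 ± 0.19 to 11.22 ± 0.87 (SD, n = 4 each, adjusted p = 0.133 by limma), with a 2.20-fold fall without SP replicate 3 (adjusted p = 0.0048, 0.00204 to 0.29 over all alternatives). Hp, haptoglobin, differed by -0.23 (adjusted p = 0.172 by limma), and by -0.33 without that array (adjusted p = 0.0278, 0.00874 to 0.745), and it was 0.055 with centred arrays.

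Camp encodes the cathelicidin antimicrobial peptide. It read 8.32, 7.07, 8.36 and 7.32 in PBS and 8.17, 7.60, 10.94 and 7.91 in SP. Apart from SP replicate 3, which was 3.05 above the mean of the other SP arrays, all SP arrays lay within the PBS range. The difference of 0.89 had a 95% confidence interval from -0.75 to 2.53 (adjusted p = 0.314 by limma) and was 0.13 without that array. Cfp, the complement factor properdin, differed by -0.69 with a like spread in both groups (SD 0.66 and 0.56, adjusted p = 0.156 by limma). Its value on PBS replicate 2 (10.36) was 1.25 below the mean of the other PBS arrays. Without that array Cfp was called lower (-0.997, adjusted p = 0.035), and without SP replicate 3 as well the difference was -1.24 (adjusted p = 0.00282, 0.00282 to 0.351 over all alternatives).

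Chil1, a chitinase-like lectin, read 12.78, 12.81, 12.94 and 12.87 in PBS and 13.18, 13.17, 13.21 and 13.12 in SP. The groups did not overlap and the SP arrays lay within 0.09 of each other. Chil1 rose by 0.32 (SE 0.07, 1.25-fold, adjusted p = 0.00599 by limma), a call that held under all 17 alternatives (0.00138 to 0.0286). Slpi, an inhibitor of elastase that epithelium also makes, read 11.72, 11.35, 12.00 and 11.94 in PBS and 12.27, 12.10, 13.31 and 12.22 in SP. Its groups did not overlap either, but SP replicate 3 was 1.11 above the others and the difference of 0.72 missed the threshold (adjusted p = 0.0613 by limma). The difference of Slpi was 0.45 without SP replicate 3 (adjusted p = 0.0546) and 0.31 without PBS replicate 2 as well (adjusted p = 0.0419), and it was called under 6 of the 17 alternatives (adjusted p from 0.0122 to 0.174 over all of them). Lcn2, lipocalin 2, which captures bacterial iron carriers, read 13.29, 13.21, 13.40 and 13.38 in PBS and 13.56, 13.44, 13.65 and 13.50 in SP. Again the groups did not overlap, and the difference of 0.22 was just short of a call (adjusted p = 0.0505 by limma).

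**Figure D2:**
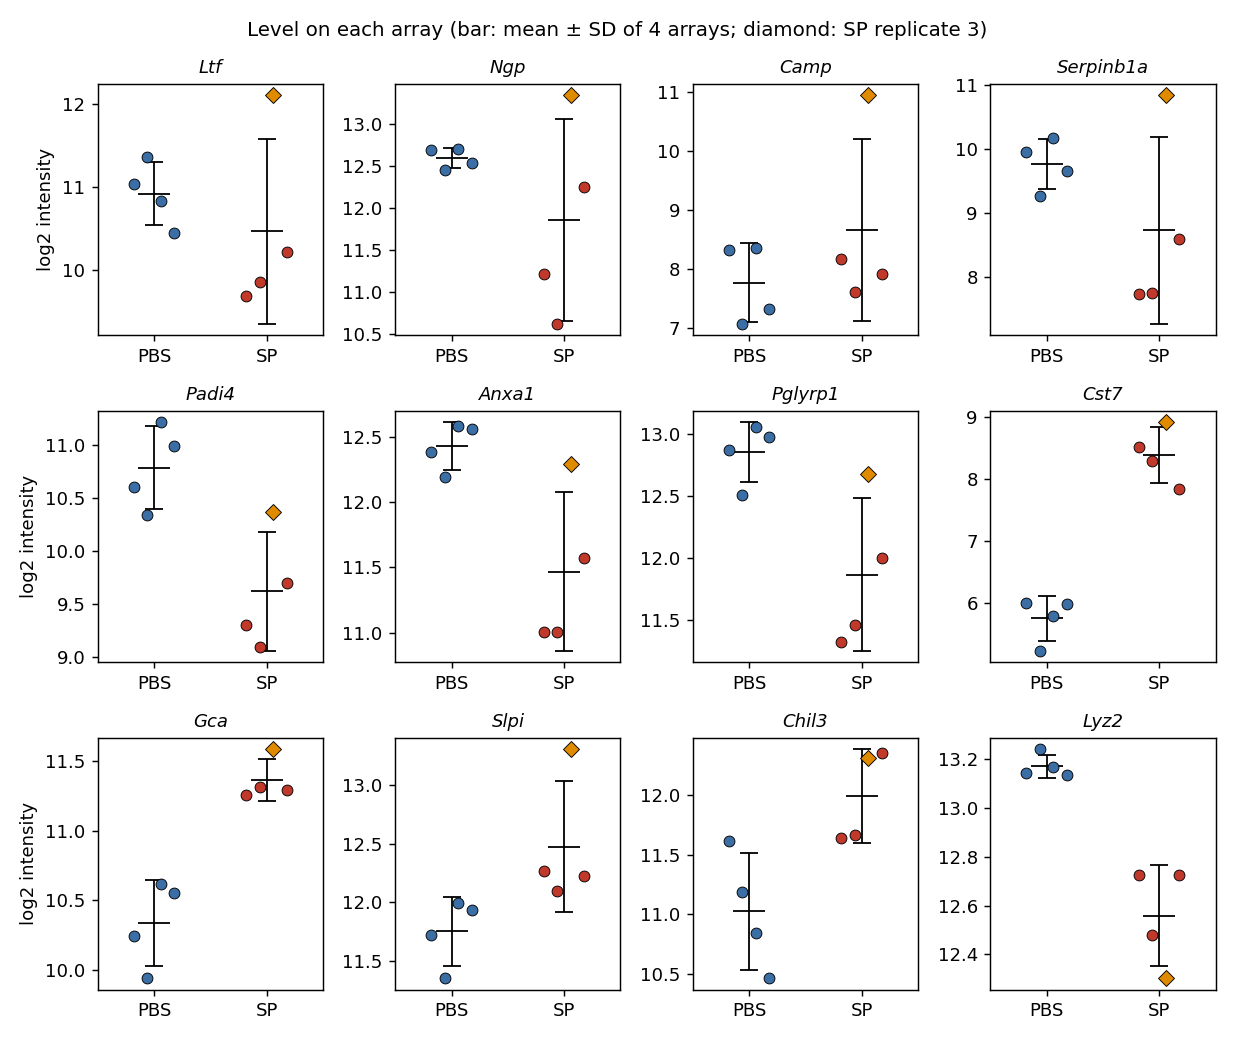
Log2 intensity on each array for 12 members; circles are single arrays, diamonds SP replicate 3, and horizontal bars the mean ± SD of 4 arrays, with a separate vertical scale in each panel that does not start at 0. SP replicate 3 is the highest array for Ltf (12.10), Ngp (13.34), Camp (10.94) and Serpinb1a (10.84), whereas the groups do not overlap for Cst7, Gca, Slpi, Chil3 and Lyz2.

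Promoter sequences are shown for 3 specific-granule genes that moved together across the SP arrays (Ltf, Ngp and Mmp8), for an azurophil gene at background level (Mpo), and for the member with the largest difference (Cst7). C/EBP factors drive granule genes in maturing neutrophils and PU.1 acts earlier, so a C/EBP-type motif, TTGCNNAA, and a PU.1-type motif, AGAGGAAG, were searched on both strands in the 250 bases before each gene start. The bases are from RefSeq (GRCm38.p6), 5′ to 3′ on the strand of the gene, and capitals mark the motif on either strand. They lie at chr9:111019042-111019291 (Ltf), chr9:110419558-110419807 (Ngp), chr9:7558179-7558428 (Mmp8), chr11:87793534-87793783 (Mpo) and chr2:150570165-150570414 (Cst7), all on the plus strand.
Ltf: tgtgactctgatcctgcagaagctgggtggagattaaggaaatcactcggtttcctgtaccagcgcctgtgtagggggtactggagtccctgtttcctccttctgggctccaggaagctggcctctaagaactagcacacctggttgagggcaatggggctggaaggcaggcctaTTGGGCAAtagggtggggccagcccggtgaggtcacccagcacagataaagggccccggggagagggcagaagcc
Ngp: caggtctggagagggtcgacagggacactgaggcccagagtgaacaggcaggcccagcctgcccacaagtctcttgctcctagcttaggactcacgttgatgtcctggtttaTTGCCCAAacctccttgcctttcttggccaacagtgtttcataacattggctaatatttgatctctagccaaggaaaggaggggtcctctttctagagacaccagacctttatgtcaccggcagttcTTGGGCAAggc
Mmp8: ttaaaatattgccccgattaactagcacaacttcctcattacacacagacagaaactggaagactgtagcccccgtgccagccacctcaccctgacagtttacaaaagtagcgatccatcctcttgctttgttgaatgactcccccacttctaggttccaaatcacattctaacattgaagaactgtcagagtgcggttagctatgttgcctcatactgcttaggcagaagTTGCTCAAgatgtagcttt
Mpo: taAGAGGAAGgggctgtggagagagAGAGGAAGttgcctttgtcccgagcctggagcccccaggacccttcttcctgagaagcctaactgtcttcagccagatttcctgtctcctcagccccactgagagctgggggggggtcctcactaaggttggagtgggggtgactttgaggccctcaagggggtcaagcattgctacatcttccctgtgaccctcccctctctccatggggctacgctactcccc
Cst7: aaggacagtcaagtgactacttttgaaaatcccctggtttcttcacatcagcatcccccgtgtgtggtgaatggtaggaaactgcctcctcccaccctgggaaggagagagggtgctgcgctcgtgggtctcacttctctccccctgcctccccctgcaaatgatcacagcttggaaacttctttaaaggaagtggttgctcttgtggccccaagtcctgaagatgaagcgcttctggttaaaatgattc

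The C/EBP-type motif is at -75 to -68 from the start in Ltf, at -138 to -131 and -11 to -4 in Ngp and at -19 to -12 in Mmp8. In Mpo, the PU.1-type motif occurs at -248 to -241 and -225 to -218, and Cst7 has neither. Not every specific-granule gene of the same shape has the C/EBP-type motif. Cd177 and Pglyrp1, in which SP replicates 1, 2 and 4 were also below all PBS arrays, have none in this window. Camp has none either, while Lcn2 and Slpi, with every SP array above every PBS array, do have it. Of the 40 members, 36 had a promoter entry (Mmp9, Hp, Wfdc21 and Serpinb1a had none). TTGCNNAA was present in 11 of them (30.6%), against 9.56% of 32851 mouse promoter entries. By compartment it was in 5 of 12 specific, 2 of 3 gelatinase, 3 of 9 cytosolic and 0 of 6 azurophil genes. It was also in 1 of 6 genes with no settled compartment. AGAGGAAG was present in 6 (16.7%), against 3.67% of all entries. These were 3 of 6 azurophil, 2 of 12 specific and 1 of 6 genes with no settled compartment. A match describes letters in this window and is no evidence that a factor binds there, and the share was not tested.

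Gelatinase-granule genes gave 1 fall and 1 rise among 4 rows. Mmp9, gelatinase B, read 12.77, 12.75, 12.99 and 12.93 in PBS and 12.04, 11.95, 12.73 and 12.37 in SP. All SP arrays were below all PBS arrays, with SP replicate 3 closest to them. Mmp9 fell by 0.59 (SE 0.17, 1.5-fold lower, adjusted p = 0.0238 by limma), and the adjusted p was 0.0544 to 0.0657 without PBS replicate 3 or 4 or SP replicate 1 or 2, and 0.167 with centred arrays (0.000384 at the lowest). Mmp25, a metalloproteinase anchored in the membrane, differed by -0.68 (adjusted p = 0.107 by limma), and fell by 1.96-fold without SP replicate 3 (adjusted p = 0.00869, 0.00196 to 0.289 over all alternatives).

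Fcnb, ficolin B, a lectin that starts complement, read 4.81, 4.65, 4.82 and 4.71 in PBS and 4.96, 5.01, 5.52 and 5.02 in SP. No PBS array exceeded the Y-linked rows and all SP arrays did. The rise of 0.38 (1.30-fold, adjusted p = 0.0443 by limma) was 0.25 without SP replicate 3 (adjusted p = 0.0219), and was lost without any single PBS array (0.0665 to 0.0981) or SP replicate 2 (0.0565) or 4 (0.0509), with a range of 0.00535 to 0.126 over all alternatives. Adam8, a membrane metalloproteinase, differed by -0.08, with a 95% confidence interval from -0.46 to 0.30.

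Among 10 cytosolic genes, Padi4 and Anxa1 fell, Gca rose and 7 were not called. The median was -0.24, which was 0.34 below that of all rows, and it turned positive (0.042) with centred arrays. Padi4 encodes the enzyme that converts histone arginine to citrulline and is used in the release of extracellular chromatin traps. It read 10.61, 10.34, 11.22 and 10.997 in PBS and 9.30, 9.09, 10.37 and 9.70 in SP. SP replicate 3 passed only PBS replicate 2, and the other SP arrays were below all PBS arrays. Padi4 fell by 1.17 (SE 0.30, 2.25-fold lower, adjusted p = 0.0136 by limma), and by 2.68-fold without SP replicate 3. The adjusted p stayed between 0.000236 and 0.0418 over all alternatives.

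Anxa1, annexin A1, a phospholipid-binding protein that limits neutrophil recruitment, read 12.38, 12.19, 12.58 and 12.56 in PBS and 11.01, 11.01, 12.29 and 11.57 in SP. Again only SP replicate 3 reached the PBS range. Anxa1 fell by 0.96 (SE 0.28, 1.94-fold lower, adjusted p = 0.0232 by limma), and by 2.35-fold without SP replicate 3 (adjusted p = 0.00102). Without PBS replicate 1, 3 or 4 or SP replicate 1 or 2, its adjusted p was 0.0513 to 0.0617 (0.000177 to 0.0617 over all alternatives).

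Serpinb1a, the cytosolic inhibitor of elastase, proteinase 3 and cathepsin G, had the widest gap of this kind among the cytosolic genes. It read 9.95, 9.26, 10.17 and 9.65 in PBS and 7.73, 7.74, 10.84 and 8.59 in SP. SP replicate 3 was above every PBS array and the other SP arrays were below every one. The difference was -1.03 (SE 0.65, adjusted p = 0.209 by limma), and -1.74 without that array (3.34-fold lower, adjusted p = 0.00234, 0.00142 to 0.411 over all alternatives).

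Gca encodes grancalcin, a calcium-binding protein that moves to granule membranes. It read 10.25, 9.94, 10.62 and 10.55 in PBS and 11.25, 11.32, 11.58 and 11.29 in SP. The groups were well apart, and SP replicate 3 was 0.29 above the mean of the other SP arrays. Gca rose by 1.02 (SE 0.16, 2.03-fold, adjusted p = 0.00118 by limma), a call held under all alternatives, while the difference fell just under 2-fold without SP replicate 3 (0.95). Msrb1, a methionine sulfoxide reductase that repairs oxidized protein, had SP above PBS on all arrays and a difference of 0.44 (adjusted p = 0.0928 by limma). PBS replicate 2 lay 0.78 below the mean of the other PBS arrays in this gene, and the difference was 0.24 without it (adjusted p = 0.12).

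S100a8 and S100a9 form calprotectin, which starves bacteria of zinc and manganese. S100a8 read 13.19, 13.12, 13.26 and 13.21 in PBS and 12.99, 12.79, 13.32 and 12.96 in SP. S100a9 read 12.52, 12.57, 12.71 and 12.59 in PBS and 12.25, 11.91, 12.80 and 12.24 in SP. In both genes SP replicate 3 was the highest of all arrays and the other SP arrays were below every PBS array. Neither was called over all arrays (-0.18, adjusted p = 0.211, and -0.30, adjusted p = 0.176, by limma). Both passed without SP replicate 3 (-0.28, adjusted p = 0.0193, and -0.46, adjusted p = 0.00966), with ranges of 0.0155 to 0.541 and 0.00966 to 0.943 over all alternatives. S100a8 turned positive with centred arrays (0.099).

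The stefin A genes Stfa1, Stfa2 and Stfa3 encode inhibitors of cysteine proteases and lie beside near-identical copies on chromosome 16, so their probes may read more than 1 of them. Stfa2 read 8.56, 7.26, 9.45 and 9.68 in PBS and 8.63, 7.52, 10.66 and 8.51 in SP. PBS replicate 2 was the lowest of all arrays and SP replicate 3 the highest. All 3 had SDs above 1 in SP and none was called (differences of -0.37, 0.09 and 0.72, adjusted p = 0.628, 0.921 and 0.27 by limma). Without PBS replicate 2 and SP replicate 3, the differences of Stfa1 and Stfa2 were -1.34 (adjusted p = 0.0113, up to 0.943 over all alternatives) and -1.01 (adjusted p = 0.0781, up to 0.976), and that of Stfa3 was 0.04.

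Of the 7 genes with no settled compartment, Cst7, Chil3 and Plbd1 rose and Retnlg fell. Cst7 encodes cystatin F, an inhibitor of lysosomal cysteine proteases that acts on cathepsin C. It read 5.99, 5.22, 5.79 and 5.98 in PBS and 8.51, 8.28, 8.91 and 7.83 in SP. The lowest SP array was 1.84 above the highest PBS array. Cst7 rose by 2.64 (SE 0.25, 6.22-fold, adjusted p = 0.000104 by limma), the largest difference among the members, and the difference stayed between 2.28 and 2.92 over all alternatives. Ctsc, the gene of that target, was not called, as given above.

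Chil3 encodes Ym1, a chitinase-like protein of neutrophils and alveolar macrophages. It read 11.62, 11.18, 10.84 and 10.46 in PBS and 11.64, 11.66, 12.31 and 12.35 in SP. The groups did not overlap, although PBS replicate 1 was only 0.027 below the lowest SP array. Chil3 rose by 0.97 (SE 0.27, 1.95-fold, adjusted p = 0.0216 by limma), which was lost without PBS replicate 3 (0.052) or 4 (0.0501) and without PBS replicate 2 and SP replicate 3 together (0.063), with a range of 0.00273 to 0.0886 over all alternatives. Alveolar macrophage markers were lower for 5 of 6 (median -1.69), while monocyte and macrophage markers were higher for 4 of 8 and lower for 0 (median 0.81). Of all rows, 22.6% were lower and 21.5% higher. The part of such cells in the rise of Chil3 was not tested.

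Plbd1, a phospholipase-like granule protein, read 11.77, 11.14, 12.17 and 12.02 in PBS and 12.64, 12.61, 12.35 and 12.32 in SP. Every SP array was above every PBS array. Plbd1 rose by 0.71 (1.63-fold, adjusted p = 0.029 by limma), but the adjusted p was 0.0657, 0.0745 and 0.0667 without PBS replicate 1, SP replicate 1 and SP replicate 2 (0.00535 to 0.0745 over all alternatives). Retnlg, resistin-like gamma, read 13.32, 13.34, 13.37 and 13.39 in PBS and 12.68, 12.56, 13.35 and 12.94 in SP. SP replicate 3 lay inside the narrow PBS range and the other SP arrays below it. Retnlg fell by 0.47 (adjusted p = 0.0418 by limma), which was lost without any single array other than SP replicate 3 (0.0613 to 0.104) and was 0.00181 without that one, the range being 0.000577 to 0.343.

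Itgb2l, an integrin-like surface protein of granulocytes also called pactolus, read 9.68, 9.20, 10.33 and 9.53 in PBS and 8.49, 7.94, 11.05 and 8.90 in SP. It had the same shape as Ltf and Serpinb1a, with SP replicate 3 above every PBS array and the others below every one. The difference was -0.59 (adjusted p = 0.431 by limma), and -1.24 without SP replicate 3 (adjusted p = 0.0149, 0.00897 to 0.785 over all alternatives). Wfdc21 (0.18) and Mcemp1 (-0.19) were not called (adjusted p = 0.655 and 0.466 by limma).

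The place of SP replicate 3 was counted across the members. In 17 of 39 members the other 3 SP arrays were all below all PBS arrays, against 23.9% of all rows, and in 11 they were all above, against 30.5%. SP replicate 3 was more than 2 log2 units above the mean of the other SP arrays in 7 members (Ltf, Camp, Serpinb1a, Stfa1, Stfa2, Stfa3 and Itgb2l), where 30 of 24625 rows (0.122%) reached that. In 19 members SP replicate 3 was the highest and SP replicate 4 the next of the SP arrays, against 11.2% of all rows. The SD was larger in SP than in PBS for 30 of 39 members (65.7% of all rows), with a median of 0.37 against 0.24. By compartment, SP replicate 3 was the highest SP array in 11 of 12 specific, 9 of 10 cytosolic, 4 of 4 gelatinase and 4 of 6 azurophil genes. As these genes are commonly expressed together, they do not count as separate observations, and nothing in the labels sets this sample apart.

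**Figure D3:**
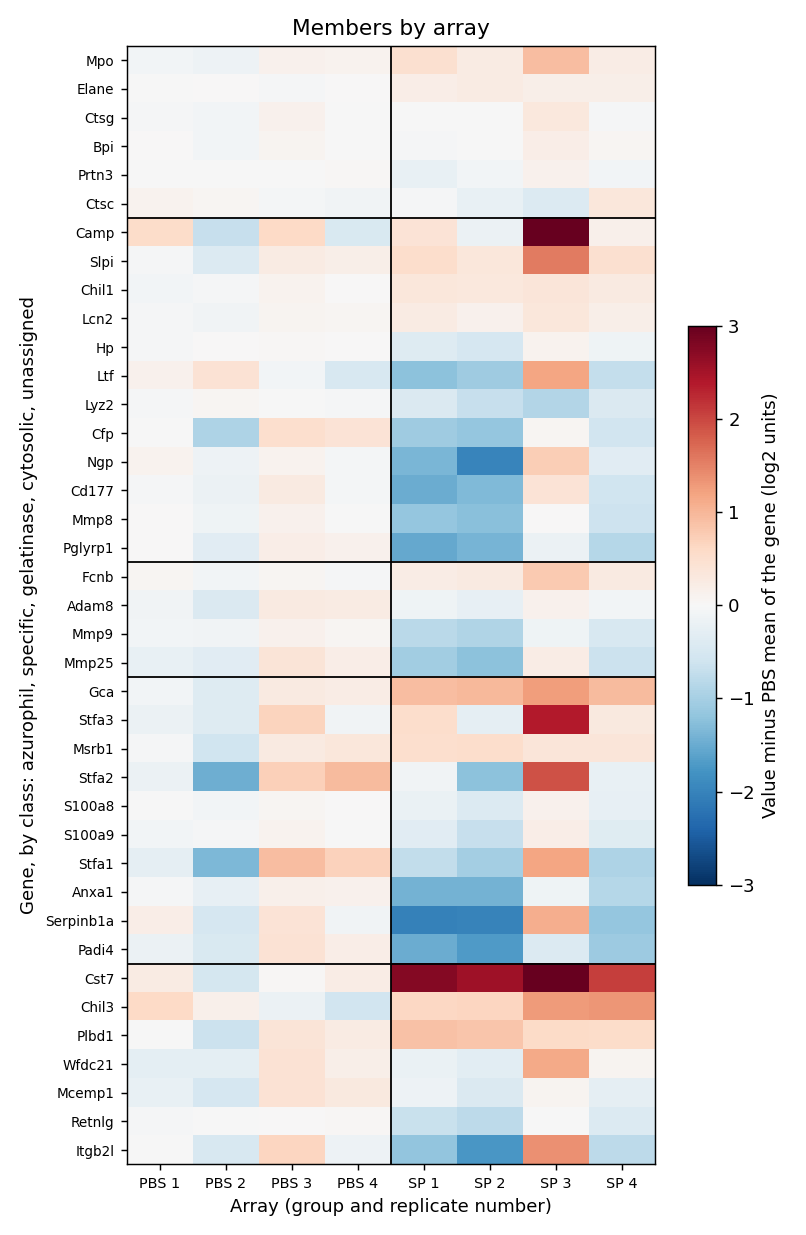
Value on each array minus the PBS mean of the gene, in log2 units, for the 39 members (rows, by compartment) on the 4 PBS and 4 SP arrays (columns); red is above and blue below the PBS mean. In Ltf, Ngp, Cd177, Serpinb1a and Itgb2l the column of SP replicate 3 is red or pale and the other SP columns are blue, in Lyz2 it is the deepest blue of the SP columns, and Cst7 and Gca are red in all 4 SP columns.

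Genes that build, store or release the granules were taken from lists of 31 genes, all with a row, of which 11 were higher and 2 lower (41.9% called, against 44.1% of all rows). Without SP replicate 3 these counts were 11 and 3, and without PBS replicate 2 as well 12 and 6. Among 6 transcriptional regulators, Cebpe, which drives specific-granule genes, rose by 1.79 (3.46-fold, adjusted p = 0.00139), Gfi1 rose by 2.22 (4.67-fold, adjusted p = 0.000654, from close to background in PBS), and Runx1 was the remaining rise, with 0 falls over all arrays. Cebpa, which encodes a C/EBP factor of early granulocyte precursors, read 8.26, 8.79, 8.04 and 8.34 in PBS and 7.12, 7.46, 8.65 and 7.63 in SP. SP replicate 3 was 1.25 above the mean of the other SP arrays, which lay below every PBS array. The difference of Cebpa was -0.64 (adjusted p = 0.124 by limma), and it was called lower without SP replicate 3 (-0.95, adjusted p = 0.00659) and without PBS replicate 2 as well (-0.81, adjusted p = 0.00534). Cebpe read 6.60, 5.30, 6.61 and 6.43 in PBS and 8.07, 7.76, 8.20 and 8.07 in SP, so SP replicate 3 did not stand apart in it. Of 12 genes of storage and release, Rab27a (-0.95, adjusted p = 0.00512) and Unc13d (-0.81, adjusted p = 0.00219), which dock and prime granules at the membrane, fell, and Stx4a rose by 0.99 (adjusted p = 0.000151), all by limma. Neither fall had overlap between the groups, where 21.8% of all rows had every SP array below every PBS array.

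Of 5 genes of the NADPH oxidase, which makes superoxide and whose membrane part is carried on specific granules, 4 rose and 0 fell. That is 80% called, where 44.1% of all rows were called and 21.5% were higher. Among the 4 were Cybb (1.58-fold, adjusted p = 0.00293) and Cyba (1.46-fold, adjusted p = 0.00495), both by limma. Among 8 inhibitors, 3 were higher and 0 lower (37.5% called, below the 44.1% of all rows). Timp1, the inhibitor of Mmp9 and other metalloproteinases, rose by 3.74 (13.4-fold, adjusted p = 9.67e-05 by limma), and Cstb, stefin B, by 1.57 (2.96-fold, adjusted p = 1.45e-05 by limma). The third was A2m at 0.50, with every array at or near the Y-linked level. SP replicate 3 was the highest SP array in 18 of the 31 (58.1%), against 84.6% of the members and 41.1% of all rows. By list, this share was 80% for the oxidase, 75% for storage and release, 50% for regulators and 25% for inhibitors. The oxidase and storage lists were thus near the members.

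Markers of the cells the bead selection could hold moved as follows, where 21.5% of all rows were called higher and 22.6% lower. Of 6 neutrophil markers with a row, 1 (Clec4d, 0.85) was higher and 0 lower, with a median of -0.084 and Cxcr2 at the low end (-0.24). Without SP replicate 3 Cxcr2 was called lower (-0.28, adjusted p = 0.0383), and without PBS replicate 2 as well Cxcr2 (-0.33, adjusted p = 0.0227) and Hdc (-0.46, adjusted p = 0.0189) were. The mean of the 6 was 12.29 to 12.99 on PBS arrays, lowest on PBS replicate 2, and 12.82, 12.73, 12.97 and 12.75 on SP arrays. SP replicate 3 thus had the highest mean of the SP arrays here too, and it was the highest SP array in 5 of the 6 rows (83.3%), a share near that of the members (84.6%). Ly6g and Cxcr1 had no matched row. All 6 club cell markers with a row (median -2.29, from -2.88 for Aldh3a1 to -0.63 for Scgb1a1) and all 6 ciliated cell markers with a row (-2.44, from -2.94 for Cdhr3 to -1.77 for Tekt1) were lower in SP. So were 7 of 8 alveolar type 2 markers (-1.15, from -2.20 for Abca3 to -0.46 for Napsa, which was not called over all arrays) and 5 of 6 alveolar macrophage markers (-1.69, from -2.70 for Mrc1 to -0.16 for Marco, not called). Airway and alveolar epithelium also expresses Ltf, Lcn2, Slpi and Chil1, and its part in their values was not tested.

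Monocyte and macrophage markers were higher for 4 of 8 and lower for 0 (median 0.81), with C1qc at the low end (-0.30, not called). That is 50% called, where 44.1% of all rows were called and 21.5% were higher. Their mean was 9.32, 9.22 and 9.69 on SP replicates 1, 2 and 4 and 8.17 on SP replicate 3, inside the PBS range of 8.01 to 8.84. SP replicate 3 was the lowest SP array in all 8 of them. On the arrays of SP mice, that sample thus combined the highest specific-granule mean (12.61, against 11.31 to 11.77) with the lowest means of monocyte and macrophage, club, ciliated and alveolar type 2 markers. Its alveolar macrophage mean (6.85) was above those of SP replicates 1 (6.76) and 2 (6.77). Whether its mixture of cells had a part in its granule values was not tested. Of 5 eosinophil markers, 2 were higher (Ear6 at 2.38 and Prg2 at 0.44), which is 40% called, and Ccr3 was at the low end (-0.10). Prg2, whose groups overlapped, and the defining gene Epx stayed at or near the Y-linked level. Of 7 precursor markers, 2 were higher (Mki67 at 2.42 and Ms4a3 at 0.39, the latter at or close to the Y-linked level on most arrays). The 3 lower ones were Myb (-1.43), Top2a (-0.97) and Kit (-0.75). Mki67 and Top2a, both proliferation genes, thus moved in opposite directions. The share called was 71.4%, against 44.1% of all rows.

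**Figure D4:**
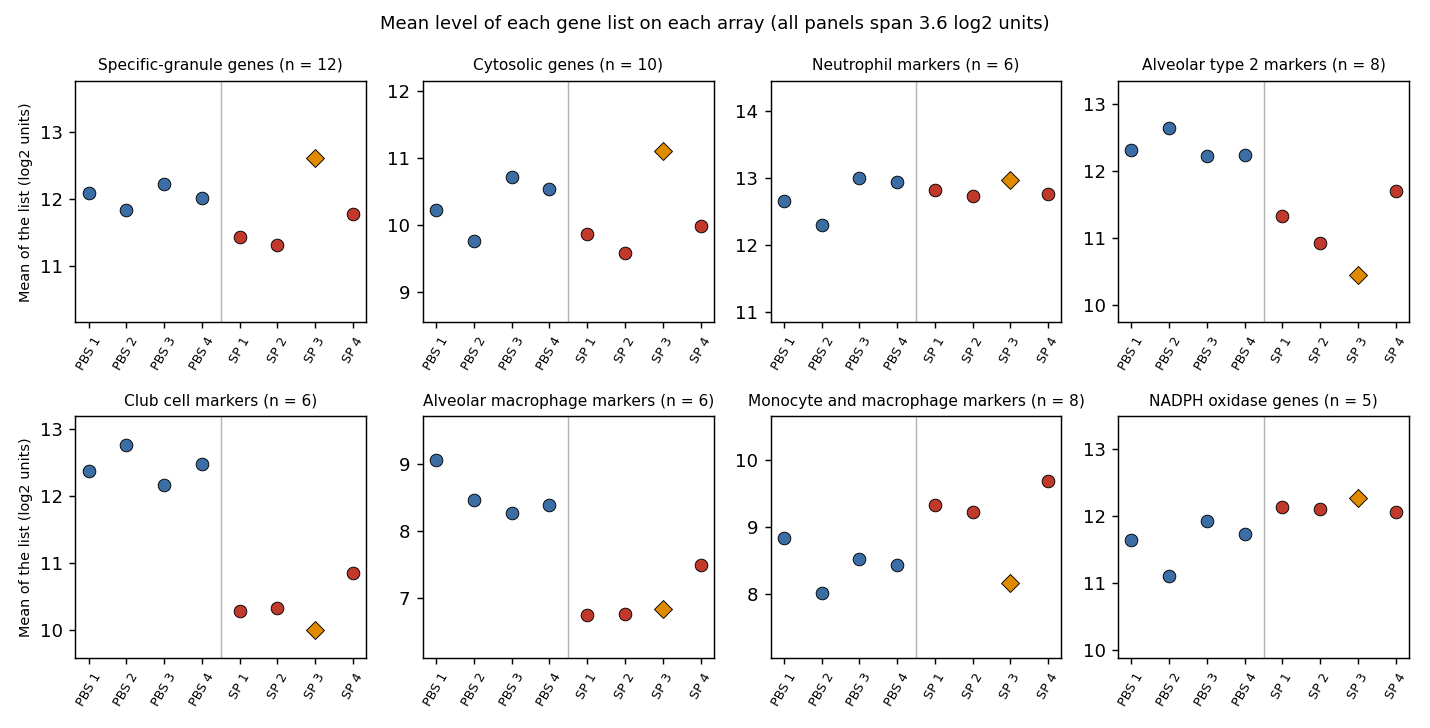
Mean log2 intensity of 8 gene lists on each array (n in each title is the number of rows); blue circles are PBS, red circles SP and the orange diamond SP replicate 3, and all panels span the same number of log2 units around different levels. SP replicate 3 is highest in specific-granule genes (12.61) and cytosolic genes (11.11), is also the highest SP array in neutrophil markers (12.97, inside the PBS range), and is the lowest SP array in alveolar type 2 (10.44), club (10.01) and monocyte and macrophage markers (8.17).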

How the data were processed

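Messenger RNA of 8 samples of lung neutrophils (4 PBS, 4 SP) was measured on Affymetrix Mouse Gene 1.1 ST arrays. Per the study's methods, the authors background-corrected, GC-corrected and quantile-normalized the signals by robust multi-array averaging (RMA) and summarized the probes of each gene by median polish; the deposited values are log2 intensities. RMA, Affymetrix Expression Console and Partek are named in the submitters' processing notes, without versions. Such values are relative within an array, and bright genes may be compressed, which would make their differences too small. All value columns were mapped to a sample by the sample titles, and 0 were left over.

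RefSeq accessions were matched without versions to symbols of NCBI RefSeq for GRCm38.p6, which named 19911 of 24625 rows, and accessions of more than 1 gene were left unnamed. SP and PBS were compared over all rows with limma 3.58.1 in R 4.3.3 (lmFit, eBayes, two-sided, no covariate, Benjamini-Hochberg). Thresholds were an adjusted p of 0.05 and, where stated, a difference of 2-fold. The fit was tested on simulated data. Lists were described by counts and medians beside those of all rows, without a test of the list. Figures were drawn with matplotlib 3.10.9 in Python 3.11.15.

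The members, classes, pathway lists, marker lists and motifs were chosen with earlier results of these data known. All members could be named. Values on every array were planned for members called at 2-fold and for the brightest member of each class, and were added for others after their values were seen. Of the pathway lists the genes called at 2-fold are named, and of marker lists those with the highest and lowest difference, apart from results that are not reported here. Cybb, Cyba, Runx1, Cebpa, Hdc, Rab27a, Unc13d, Stx4a, A2m, Prg2, Epx, Ms4a3, Top2a and Kit were added after seeing the values.

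Alternatives were the per-row analysis of variance that the study's methods name, which for 2 groups is the equal-variance t-test (the methods' t-test), array weights, a fit with a trended and robust prior, a block for the replicate number, centred arrays, another quantile normalization, dim rows left out, 1 row per symbol, and each array left out in turn. Leaving out PBS replicate 2 and SP replicate 3 together was added after seeing the data.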

Additional observations from a re-analysis of the deposited data

Results flagged for a closer look

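In groups of 4 arrays, a value was picked out when its gap to the nearest other array took up most of the range of its group. Chance picks out about 1 in 20 groups, and 6 of the 78 groups of members were picked out, 5 of them at SP replicate 3. In SP replicate 3 these were Camp (10.94), Slpi (13.31), Stfa1 (9.162), Fcnb (5.524) and Ctsg (4.645), each the highest of the SP arrays. The other was Prtn3 in PBS replicate 4 (4.636), the highest of the PBS arrays. Ctsg and Prtn3 were within the range of the Y-linked rows, and Fcnb was close to it.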

How the results depend on the processing

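Calls of Chil1, Cst7, Gca, Lyz2 and Padi4 held under all 17 alternatives, and the other 10 of 15 called members lost theirs under 1 or more without changing sign. Of 24 uncalled members, 17 were called under 1 or more, and 11 changed sign. Of 656 member values under alternatives, 507 kept direction and call, 73 lost the call, 51 gained 1 and 25 changed sign. The number called higher (8 over all arrays) was 5 with the methods' t-test, 13 with centred arrays, 3 after another quantile normalization and 4 to 8 with any 1 array left out. The number called lower (7) was 3, 2, 12 and 2 to 16 in the same order, 18 with array weights and 18 without PBS replicate 2 and SP replicate 3. At 2-fold, higher members (2) numbered 4 with centred arrays, 1 after quantile normalization, with array weights and without both arrays, and 1 to 3 with 1 array left out. Lower ones (1) numbered 0, 3, 11, 11 and 0 to 8. Array weights gave SP replicate 3 a weight of 0.197 and PBS replicate 2 0.464. Centring adds the same amount to every SP difference.

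With 1 array left out, medians ranged from -0.28 to -0.060 (all members), 0.019 to 0.094 (azurophil), -0.73 to -0.29 (specific), -0.44 to -0.25 (gelatinase), -0.49 to -0.11 (cytosolic) and -0.14 to 0.34 (no settled compartment). The azurophil median was also -0.0091 with array weights, 0.34 with centred arrays, -0.083 after quantile normalization and -0.077 with dim rows left out, and that of the last class -0.21 with array weights and -0.24 without both arrays.

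Sign changes were, with array weights, Ctsg (-0.015), Bpi (-0.018), Stfa2 (-0.80) and Wfdc21 (-0.21), and with centred arrays, Prtn3 (0.21), Ctsc (0.20), Hp (0.055), Adam8 (0.20), S100a8 (0.099) and Mcemp1 (0.090). They were Ctsg (-0.078) and Bpi (-0.089) after quantile normalization, Stfa2 without PBS replicate 2 (-0.40), Adam8 without PBS replicate 3 (0.016) or 4 (0.0064), and Ctsg (-0.022), Ctsc (0.033), Stfa2 (-0.52) and Wfdc21 (-0.14) without SP replicate 3. Without both arrays they were Ctsg (-0.046), Ctsc (0.055), Bpi (-0.023), Camp (-0.11), Stfa2 (-1.01) and Wfdc21 (-0.24). With 1 array left out, differences ranged from -0.022 to 0.11 (Ctsg), -0.22 to 0.033 (Ctsc), -0.22 to 0.016 (Adam8), -0.52 to 0.53 (Stfa2) and -0.14 to 0.34 (Wfdc21). The cause of these changes was not tested.

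With the replicate number as a block, 6 members were higher and 9 lower, 2 and 1 of them at 2-fold. Same-numbered PBS and SP arrays deviated together only for number 3 (correlations of 0.016, 0.030, 0.35 and -0.27 for numbers 1 to 4), and not every array was closest to its own number, so the numbers were not taken to pair the samples. Rows at the level of Y-linked genes (Mpo, Elane, Prtn3, Ctsg, Bpi, Fcnb) limit what can be read from their differences.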

Other observations

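The 30 rows in which SP replicate 3 lay more than 2 log2 units above the mean of the other SP arrays comprised 7 members, 18 other named rows and 5 rows without a name. Genes outside the members were picked here after their values were seen, so no test is given. Il10, an anti-inflammatory cytokine, read 5.19, 4.86, 5.36 and 5.65 in PBS and 9.13, 8.09, 12.18 and 9.79 in SP, so all SP arrays were above all PBS arrays and SP replicate 3 was above the others. Serpinb2, an inhibitor of plasminogen activators, read 6.04, 5.72, 10.08 and 6.90 in SP, against 4.56 at the lowest and 5.37 at the highest in PBS. Abca13, a lipid transporter of the ABC family, and Ceacam10 had the shape of the granule genes instead. Abca13 read 8.29, 8.11, 8.67 and 8.00 in PBS and 6.93, 6.73, 10.22 and 7.46 in SP. Ceacam10 read 10.01, 9.20, 10.85 and 10.31 in PBS and 7.57, 8.20, 10.31 and 8.82 in SP, with SP replicate 3 inside the PBS range and the others below it.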
